A study of Mus musculus with 16 samples.

Results

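Aquaporins are membrane channels for water, and some members also pass glycerol and other small solutes. Urea transporters are channels for urea. In the kidney, vasopressin acts on collecting duct cells through cyclic AMP to move water channels to the cell surface, and urea trapped in the medulla helps to concentrate urine. In the liver, aquaporins take part in bile formation and in the uptake of glycerol for glucose production. The levels of 10 genes of these families, of 24984 genes in the count files, were examined in all 16 libraries by tissue and treatment. They are the urea transporters *Slc14a1* and *Slc14a2* and the aquaporins *Aqp1*, *Aqp2*, *Aqp3*, *Aqp4*, *Aqp7*, *Aqp8*, *Aqp9* and *Aqp11*. The genes were chosen by name, with earlier results of the same libraries known, including their levels and their differences between treatments. Their values are therefore a description, and nothing is supported with them.

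RNA was taken from kidney and liver of C57BL/6 mice of WT genotype, which the labels give as 24 months old. The study's methods do not say whether the whole organ was used. All mice had received an AAV8 vector, made from an adeno-associated virus. In the shFos group it encoded a hairpin RNA that targets *Fos*, and in the NT group (shNT in the labels) a hairpin with no target, so both groups carried the vector and a hairpin. By the study's methods the mice were female, were injected through the tail vein at 24 months, and gave their tissues 3 months later. Each combination of tissue and treatment had 4 libraries, numbered as replicates without an animal being named, so p-values measure the spread between these libraries. The promoter that drives the hairpin and the cells that took up the vector are not given in the sources used here. Counted reads ranged from 14194543 to 15534665 per kidney library and from 16652150 to 18300277 per liver library. Levels are given as CPM, counts scaled to a shared library total after TMM, a factor that sets most genes level between the libraries of a tissue. Where a gene had 0 counts, up to 3 counts remain possible from counting error alone. Before the TMM factor is applied, these correspond to 0.164 CPM in the deepest library and 0.211 CPM in the shallowest.

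Kidney and liver libraries carried the markers of their labelled tissue. The 6 proximal tubule markers summed to between 3920 and 10500 CPM in the kidney libraries and to at most 2.28 CPM in the liver libraries. The 5 hepatocyte markers, led by *Alb*, summed to between 44100 and 188000 CPM in the liver libraries and to at most 1320 CPM in the kidney libraries. Some libraries stood apart. Distances between libraries of a group were measured as chi-square over its degrees of freedom. Liver NT replicate 4 lay 334 to 431 from the other NT livers, which lay 40.7 to 60.2 from each other, and it had the lowest *Alb*, at 27300 CPM against 95700 to 170000 CPM in the other livers. Kidney NT replicate 4 lay 63.6 to 67.7 from the other NT kidneys, which lay 7.17 to 13 from each other, and it had the lowest proximal tubule sum. Liver shFos replicate 3 lay 55.7 to 72.5 from the other shFos livers, which lay 19.9 to 25.5 from each other. Kidney shFos replicate 3 lay 30.6 to 58.5 from the other shFos kidneys, which lay 22 to 32 from each other, so these ranges overlapped.

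*Fos*, the gene the hairpin targets, encodes a subunit of the AP-1 transcription factor. In kidney it had 6.71, 5.26, 4.23 and 5.29 CPM in NT replicates 1 to 4 and 2.57, 4.12, 3.93 and 2.3 CPM in shFos replicates 1 to 4. The highest shFos kidney lay under the lowest NT kidney, a pattern that 8.04% of the 14892 genes tested there showed. The log2 fold change was -0.73 (SE 0.25), with an adjusted p of 0.0955 by edgeR and 0.0427 by DESeq2. In liver it had 1.12, 2.37, 3.7 and 2.86 CPM in the NT replicates and 1.63, 1.5, 2.76 and 1.38 CPM in the shFos replicates. These groups overlapped, with 1 shFos liver above the NT mean and a log2 fold change of -0.47 (SE 0.38, edgeR adjusted p = 0.778). That value was -0.23 without NT replicate 3 and -0.75 without shFos replicate 3. *Fos* thus had groups without overlap in kidney and overlapping groups in liver, but a difference between the tissues was not shown. Its liver log2 fold change exceeded the kidney one by 0.27 (SE 0.47, edgeR adjusted p = 0.826). With the libraries numbered replicate 1 left out, this difference was -0.18. By RT-qPCR, the study reports lower *Fos* after shFos in both tissues.

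The tissues differed in which of the 10 genes they carried. For the order of levels within a tissue, CPM were divided by the length of each gene's longest annotated transcript to give RPKM. In the 8 kidney libraries *Aqp1*, the water channel of proximal tubules and thin descending limbs, came first at 342 ± 57.4 RPKM (SD, n = 8). *Aqp2*, the vasopressin-regulated channel of collecting duct principal cells, followed at 204 ± 87.2 RPKM (SD, n = 8). *Aqp3*, the channel through which water leaves the same cells on the blood side, stood at 60.3 ± 15.1 RPKM (SD, n = 8). Below these came *Slc14a2*, the urea transporter of the inner medullary collecting duct and thin limb, at 26.5 ± 10.9 RPKM and *Aqp4*, another blood-side channel of principal cells, at 16.7 ± 7.33 RPKM (SD, n = 8 for both). With the mean transcript length in place of the longest, *Aqp4* (56.2 RPKM) came before *Slc14a2* (40.8 RPKM) and *Aqp11* (16.3 RPKM) before *Aqp7* (12.9 RPKM). *Slc14a2* and *Aqp4* overlapped within their SDs, as did *Aqp7* at 7.41 ± 1.03 RPKM and *Aqp11* at 6.32 ± 0.699 RPKM. The SDs of *Aqp1* and *Aqp2* overlapped too, although *Aqp1* was above *Aqp2* in every kidney library. *Slc14a1*, the urea transporter of the descending vasa recta, red cells and urothelium, had 2.04 ± 0.942 RPKM. *Aqp8* and *Aqp9* came last in kidney, at 0.629 ± 0.289 and 0.19 ± 0.0896 RPKM, from 3 to 23 and from 3 to 13 counts per library.

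In the 8 liver libraries *Aqp8*, a water channel of hepatocytes that reaches the bile canaliculus, had 117 ± 77.2 RPKM. *Aqp9*, the channel by which hepatocytes take up glycerol, had 109 ± 35.3 RPKM, so the 2 did not differ beyond their spread (SD, n = 8 for both). With the mean length, *Aqp9* came before *Aqp8*, at 242 against 128 RPKM. With the longest length, the order differed between groups. *Aqp9* had 127 and *Aqp8* 73.3 RPKM in NT livers, and *Aqp9* had 91.7 and *Aqp8* 162 RPKM in shFos livers. *Aqp1*, which liver expresses in endothelium and bile duct cells, had 19.5 ± 2.49 RPKM, and *Aqp11*, an intracellular channel of the endoplasmic reticulum, 3.08 ± 0.552 RPKM. *Slc14a1* had 0.189 ± 0.112 RPKM, from 5 to 23 counts per library. *Aqp4* had 1 to 12 counts per liver library. *Slc14a2*, *Aqp2*, *Aqp3* and *Aqp7* had at most 3 counts in any liver library, which is at the limit of detection, and no fold is given for them.

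**Figure D1:**
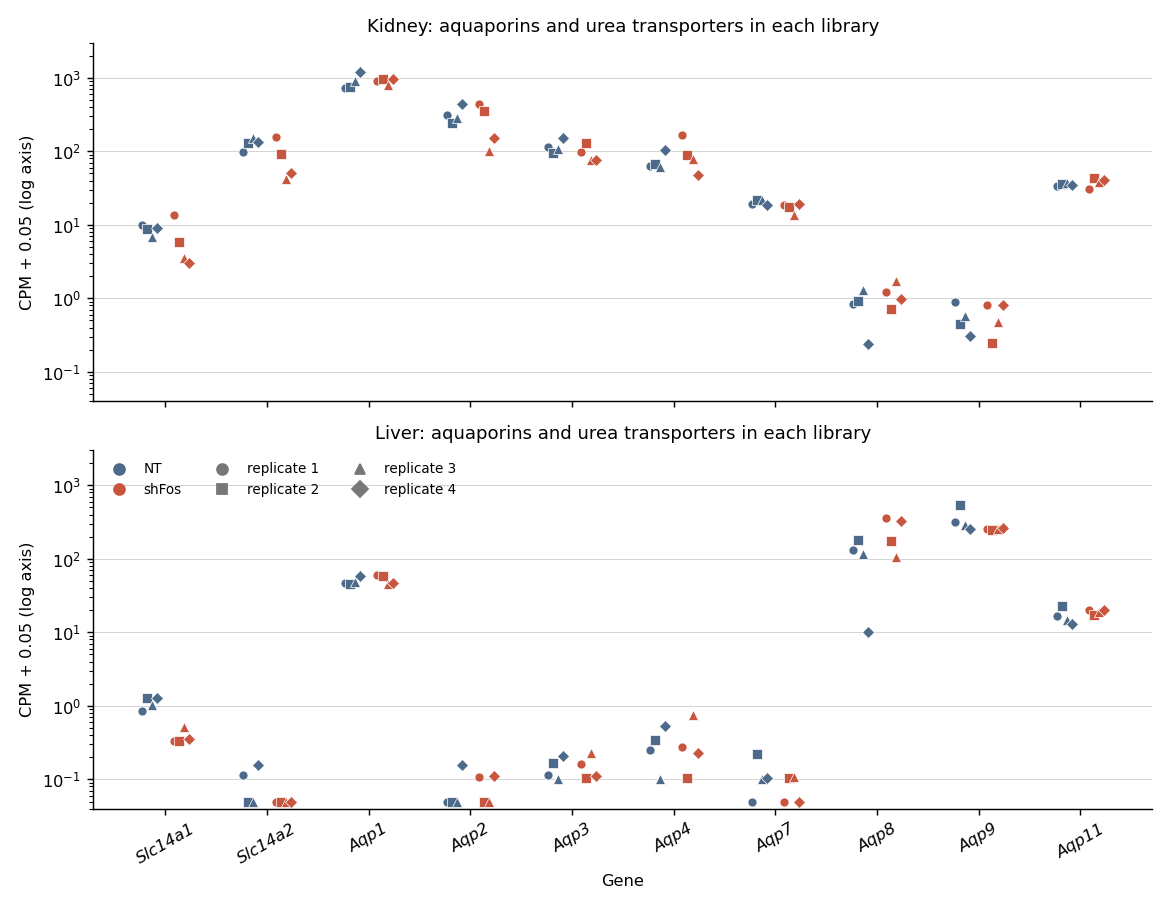
CPM of each of the 10 genes in every kidney library (upper panel) and liver library (lower panel), on a log axis after adding 0.05 so that a count of 0 can be drawn. Points are single libraries, colored by treatment, with a symbol for each replicate number. *Aqp1* and *Aqp2* are highest in kidney and *Aqp8* and *Aqp9* in liver, where liver NT replicate 4 has 9.95 CPM of *Aqp8*.

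Between tissues, levels of a single gene were compared in CPM. *Aqp1* was 17.6 times as high in kidney as in liver and *Slc14a1* 10.8 times. *Aqp4* was higher in every kidney library, but with 1 to 12 counts per liver library no ratio is given. *Aqp9* was 575 times and *Aqp8* 187 times as high in liver as in kidney, ratios that are imprecise because they rest on 3 to 13 and 3 to 23 counts per kidney library. Of the 10 genes, 8 were higher in every kidney library than in every liver library, as were 59.5% of 15421 genes, and 2 were higher in every liver library, as were 6.66% (66.2% either way). The ratios moved with the scaling. With TMM over all 16 libraries, chosen after seeing the data, the ratios were 8.81 for *Aqp1* and 5.45 for *Slc14a1* toward kidney and 1150 for *Aqp9* and 376 for *Aqp8* toward liver, and the shares were 24.6% and 18.5%. *Aqp11* was 2.05 times as high in kidney on the first scale, without overlap, but 1.03 times with TMM over all libraries, where the tissues overlapped.

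The question put to each tissue was whether these genes differed between shFos and NT. After the filter on low counts, 9 of the 10 genes were tested in kidney, where *Aqp9* did not pass, and 5 in liver (*Slc14a1*, *Aqp1*, *Aqp8*, *Aqp9* and *Aqp11*). By edgeR, 0 of the 9 were called at an adjusted p under 0.05 in kidney, as were 0% of 14892 genes. By edgeR, 0 of the 5 were called in liver, as were 0% of 13144 genes. At an unadjusted p under 0.05 the count in kidney was 0 of 9, against 31.9% of all genes tested (17.1% higher and 14.8% lower). In liver it was 1 of 5, *Slc14a1*, which was lower, against 6.74% (3.58% higher and 3.16% lower). DESeq2 called 0 of the 8 that it gave an adjusted p in kidney, against 19.6% of 13766 genes (11.3% higher and 8.28% lower). In liver DESeq2 called 0 of 4, against 0.304% of 12189 (0.139% higher and 0.164% lower). In kidney 4 of the 9 were higher and 5 lower in shFos, with a median log2 fold change of -0.25, while 50.3% of all genes were higher and their median was 0.002. In liver 3 of the 5 were higher and 2 lower, with a median of 0.09, while 47.7% of all genes were higher and their median was -0.012. The signs of *Aqp1*, *Aqp4* and *Aqp11* in kidney turned under some alternatives, given with each gene. Groups that did not overlap were seen for 0 of the 9 in kidney, against 17.2% of genes (9.16% with shFos higher), and for 1 of the 5 in liver, against 4.31%.

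**Figure D2:**
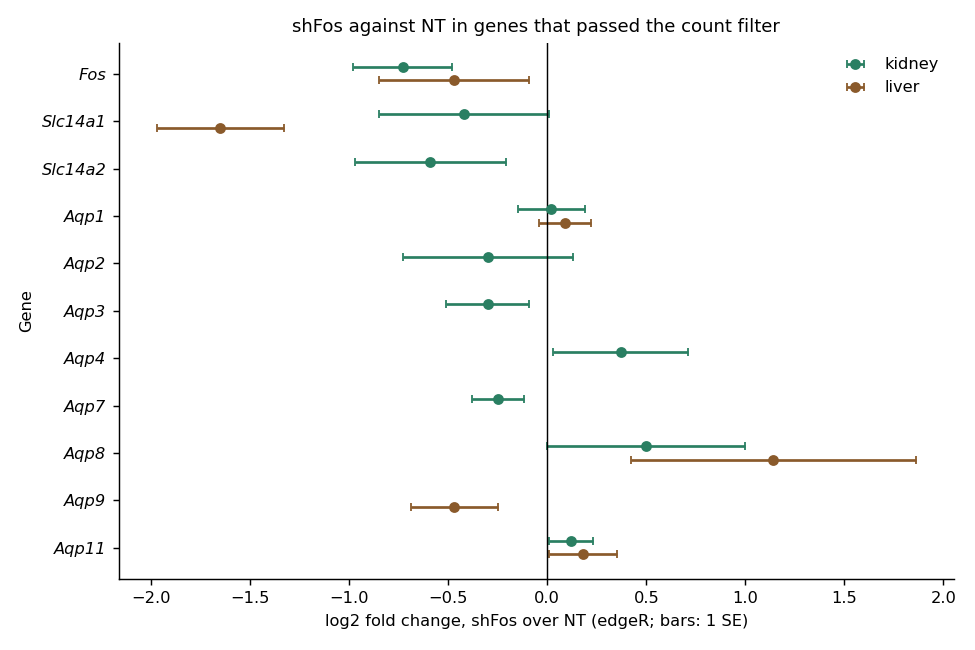
Log2 fold change of shFos over NT for *Fos* and each of the 10 genes that passed the filter on low counts, in kidney and in liver, from edgeR with 4 libraries per group. Bars are 1 SE. *Slc14a1* in liver lies at -1.65 and *Aqp8* in liver at 1.14, and none of the values passed the adjusted threshold.

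*Slc14a1* (ENSMUSG00000059336.14) encodes the urea transporter UT-B and lies on chromosome 18 of mm10, from 78100091 to 78142119 on the minus strand, beside *Slc14a2* (78146148 to 78596942, same strand). In liver it had 12, 21, 19 and 23 counts in NT replicates 1 to 4 and 5, 5, 8 and 5 counts in shFos replicates 1 to 4. All 4 shFos livers were below all 4 NT livers, as were the shFos libraries for 1.52% of the genes tested in liver. The group levels were 1.05 ± 0.204 and 0.332 ± 0.0924 CPM (SD, n = 4 for both). The log2 fold change was -1.65 (SE 0.32), with an adjusted p of 0.712 by edgeR, and it kept its sign in all 19 alternatives, between -1.87 and -1.58, with adjusted p from 0.302 to 0.959. DESeq2 gave it no adjusted p. At 5 to 23 counts per library, counting error is a large part of each value. Because red cells carry UT-B, red cell markers were examined. The globin genes are listed at 0 in every library, and whether the annotation used for counting could count them was not tested. *Alas2*, the most abundant of the red cell markers, had 11, 23.8, 7.65 and 6.67 CPM in the NT livers and 12, 12.6, 31.4 and 8.85 CPM in the shFos livers. The 6 endothelial markers, led by *Plvap*, summed to 124, 136, 177 and 137 CPM in the NT livers and 169, 183, 167 and 156 CPM in the shFos livers, with 0 of the 6 at 0. The part of these markers in the *Slc14a1* difference was not tested. In bulk tissue, fewer cells of a type and less RNA per cell cannot be told apart.

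In kidney *Slc14a1* had 9.86, 8.76, 6.84 and 8.89 CPM in the NT replicates and 13.4, 5.72, 3.5 and 2.99 CPM in the shFos replicates. One library decided the picture: shFos replicate 1 was above every NT kidney, while shFos replicates 2 to 4 were below every NT kidney. Its log2 fold change was -0.42 (SE 0.43, edgeR adjusted p = 0.532). Its neighbor *Slc14a2* (ENSMUSG00000024552.16), which encodes the vasopressin-regulated transporters UT-A, had 97.4, 129, 153 and 134 CPM in the NT replicates and 156, 92.6, 41.8 and 50.5 CPM in the shFos replicates. Again shFos replicate 1 was the highest of the 8 libraries and shFos replicates 2 to 4 were below every NT kidney. For *Slc14a2* the log2 fold change was -0.59 (SE 0.38, edgeR adjusted p = 0.309). Without shFos replicate 1, edgeR called both genes lower, *Slc14a1* at -1.11 (adjusted p = 0.0171) and *Slc14a2* at -1.09 (adjusted p = 0.0317). Without that library 27.5% of 15006 genes were called, so the 2 calls stand in a comparison in which many genes passed. Without shFos replicate 3 the log2 fold changes were -0.22 and -0.36, and without shFos replicate 4 -0.19 and -0.41. Among 19 alternatives, adjusted p values lay between 0.0171 and 0.807 for *Slc14a1* and between 0.0317 and 0.549 for *Slc14a2*.

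Of the water channels of the principal cell, *Aqp2* and *Aqp3* were below the NT range in shFos replicates 3 and 4. *Aqp4* was below it in shFos replicate 4 but not in replicate 3. *Aqp2* (ENSMUSG00000023013.5) had 311, 241, 282 and 443 CPM in NT replicates 1 to 4 and 438, 350, 100 and 150 CPM in shFos replicates 1 to 4. Of the shFos kidneys, replicates 3 and 4 were below the NT range and replicates 1 and 2 inside it. For *Aqp2* the log2 fold change was -0.3 (SE 0.43, edgeR adjusted p = 0.66). It was -0.03 without shFos replicate 3, -0.11 without shFos replicate 4, -0.1 without NT replicate 4, -0.48 without shFos replicate 2 and -0.71 without shFos replicate 1. *Aqp3* had 114, 95.7, 106 and 154 CPM in the NT replicates and 98.3, 131, 76.2 and 76.3 CPM in the shFos replicates. Replicates 3 and 4 of shFos were again below every NT kidney, and the log2 fold change was -0.3 (SE 0.21, edgeR adjusted p = 0.35). It was -0.14 without NT replicate 4, -0.2 without shFos replicate 3 and -0.49 without shFos replicate 2. *Aqp4* had 63.8, 66.9, 60.9 and 103 CPM in the NT replicates and 166, 88.9, 79.2 and 47.8 CPM in the shFos replicates. Its shFos values spanned the NT range on both sides. The log2 fold change of *Aqp4* was 0.37 (SE 0.34, edgeR adjusted p = 0.482) and turned to -0.07 without shFos replicate 1 (edgeR adjusted p = 0.864; 0.274 to 0.909 over the alternatives).

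Markers of cells of the same regions were examined in the same libraries. The 7 principal cell markers, led by *Hsd11b2* in every library and with 0 of the 7 at 0, summed to 505, 432, 409 and 455 CPM in the NT kidneys and to 468, 361, 280 and 321 CPM in the shFos kidneys. All 7 had a negative log2 fold change, with a median of -0.31, and DESeq2 called 2 of them lower, against 8.28% of all genes. The 5 urothelial markers, led by *Upk1a* except in NT replicate 4, where *Upk1b* led, summed to 33.2, 25.9, 8.14 and 70.1 CPM in the NT kidneys and to 95.4, 46.6, 2.15 and 6.83 CPM in the shFos kidneys. Urothelium lines the renal pelvis, where the inner medulla ends, and its markers were lowest in shFos replicates 3 and 4, with *Upk2* and *Upk3a* at 0 in replicate 3. Between groups 3 of the 5 were higher and 2 lower in shFos, with a median of 0.23. The 4 thin limb markers, led by *Cryab*, summed to 275, 369, 322 and 243 CPM in the NT kidneys and to 672, 325, 147 and 269 CPM in the shFos kidneys, with 1 of the 4 at 0 in shFos replicate 3, and 2 were higher and 2 lower, with a median of 0.07. The 5 podocyte markers, which belong to the cortex and were led by *Podxl* with 0 of the 5 at 0, summed to 494, 434, 375 and 331 CPM in the NT kidneys and to 427, 810, 868 and 775 CPM in the shFos kidneys. All 5 were higher in shFos, with a median of 0.82, and DESeq2 called all 5, against 11.3% of all genes. The 6 endothelial markers, read because descending vasa recta carry *Slc14a1*, summed to 635, 670, 630 and 569 CPM in the NT kidneys and to 797, 728, 583 and 643 CPM in the shFos kidneys, led by *Plvap* with 0 of the 6 at 0. Of these, 5 were higher and 1 lower in shFos, with a median of 0.3, and DESeq2 called 1 higher, against 11.3% of all genes. The part of these marker levels in the values of *Slc14a1*, *Slc14a2*, *Aqp2*, *Aqp3* and *Aqp4* was not tested.

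**Figure D3:**
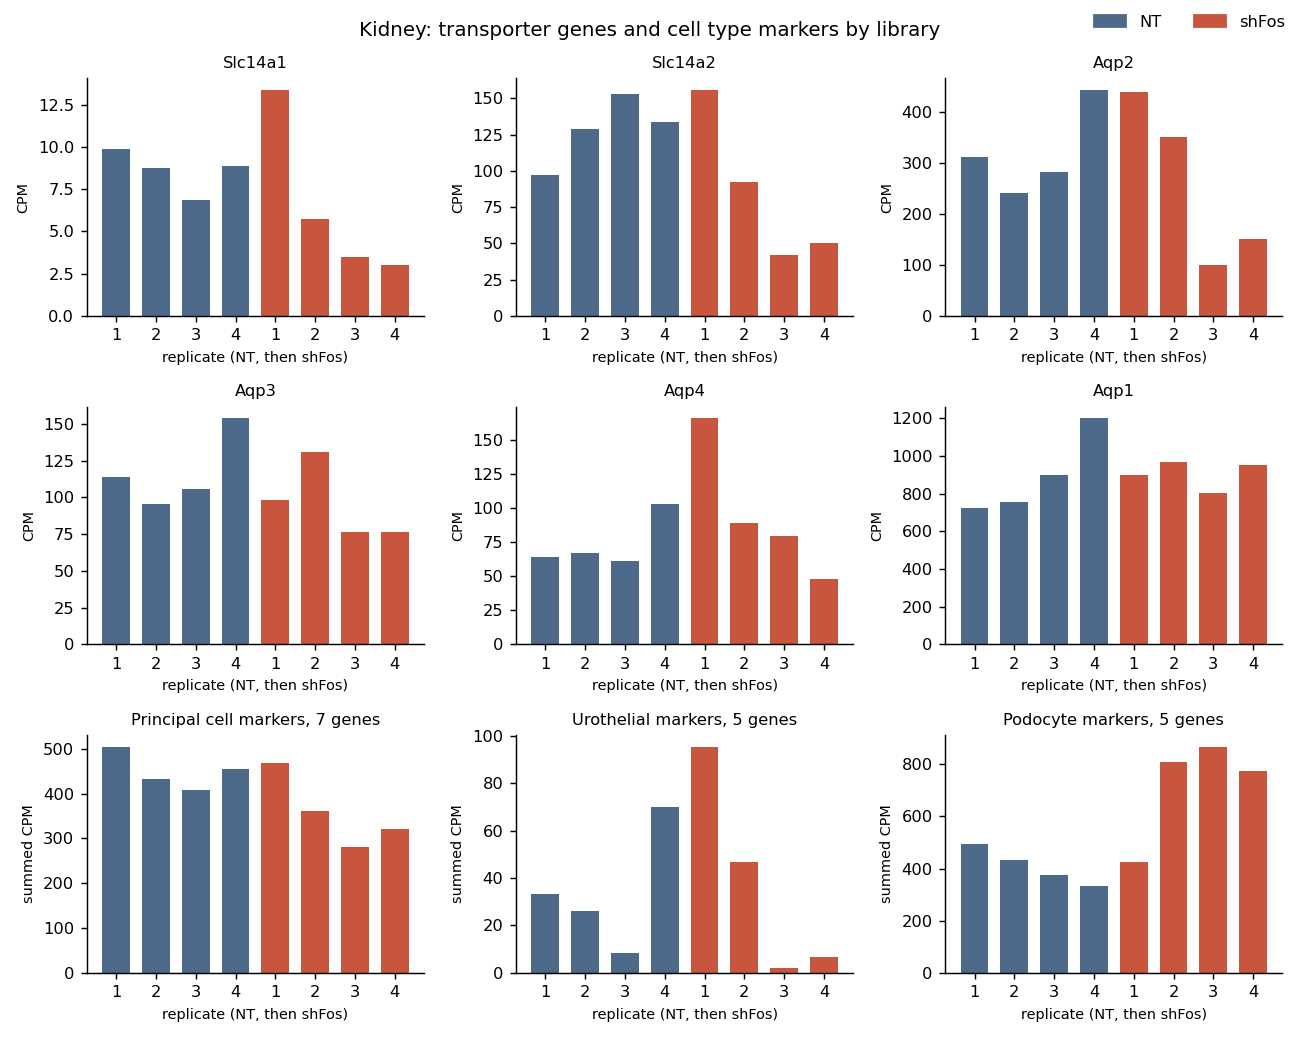
CPM of 6 transporter genes and summed CPM of 3 lists of cell type markers in each of the 8 kidney libraries, NT first and then shFos, with bars from 0. *Slc14a1*, *Slc14a2*, *Aqp2*, *Aqp3* and the principal cell and urothelial markers are low in shFos replicates 3 and 4, while podocyte markers are high in shFos replicates 2 to 4.

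Pairs of the kidney channels differed in how far they varied together over the 8 kidney libraries. The correlation of log2 CPM was 0.872 between *Slc14a1* and *Slc14a2* (Spearman 0.762), 0.867 between *Slc14a2* and *Aqp2* (Spearman 0.667), and 0.828 between *Aqp2* and *Aqp3* (Spearman 0.857). It was 0.626 between *Slc14a2* and *Aqp3* (Spearman 0.429), 0.438 between *Slc14a2* and *Aqp4* (Spearman 0.357), 0.566 between *Aqp2* and *Aqp4* (Spearman 0.667), and 0.359 between *Aqp3* and *Aqp4* (Spearman 0.357). With group means removed, the lower pairs came closer to the rest, at 0.735 for *Slc14a2* and *Aqp4*, 0.73 for *Aqp2* and *Aqp4*, and 0.561 for *Aqp3* and *Aqp4*, while *Slc14a2* and *Aqp3* had 0.493. These values describe 8 libraries that share 2 treatment groups and their scaling, and *Slc14a2* ranked 255 of 14891 genes in likeness to *Slc14a1*. *Aqp11* went the other way from *Slc14a1*, with a correlation of -0.827 (Spearman -0.929). Genes most alike were ranked by Pearson correlation, and a ranking by Spearman correlation shared 0 to 3 of the 5 named for each gene, with 0 for *Slc14a1* and *Aqp2* in kidney and for *Slc14a1*, *Aqp8* and *Aqp9* in liver. The 5 genes most alike to *Slc14a1* in kidney were *Igdcc3*, *Lamb2*, *Slco4a1*, *Hspb1* and *Platr21*, with correlations from 0.982 to 0.968. For *Slc14a2* they were *Cacnb2*, *Foxf1*, *Rasal1*, *Esam* and *Llgl1* (0.987 to 0.969). For *Aqp2* they were *Nfe2l3*, *Bmp3*, *Trp63*, *Krt19* and *Vwf* (0.979 to 0.96), and for *Aqp3* *Acacb*, *Prmt1*, *Rusc2*, *Rasl12* and *Htra3* (0.983 to 0.955). *Aqp4* was most like *Lpin2*, *Hspa1a*, *Hspa1b*, 2010300C02Rik and *Ociad2* (0.954 to 0.926).

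*Aqp1* (ENSMUSG00000004655.5) was the most even of the abundant channels in shFos kidneys. It had 722, 755, 896 and 1200 CPM in the NT kidneys and 897, 967, 802 and 953 CPM in the shFos kidneys. All shFos values lay inside the NT range, with a log2 fold change of 0.02 (SE 0.17, edgeR adjusted p = 0.948) whose sign turned under 6 of the 19 alternatives, upper quartile scaling among them. In liver its log2 fold change was 0.09 (SE 0.13, edgeR adjusted p = 0.884), from 44.8 to 59.9 CPM over the 8 libraries. Leaving out 1 liver library moved it to between 0.02 (without shFos replicate 1) and 0.15 (without NT replicate 4 or shFos replicate 3). The proximal tubule markers, led by *Slc34a1* with 0 of the 6 at 0, summed to 7040, 6190, 7710 and 3920 CPM in the NT kidneys and to 7410, 9340, 9950 and 10500 CPM in the shFos kidneys. In NT replicate 4 the highest *Aqp1* value thus met the lowest proximal tubule sum. The genes most alike to *Aqp1* over the 8 kidney libraries were *Glb1l2*, *Rgcc*, *Sh3tc2*, *Pithd1* and *Wipf3*, with correlations from 0.961 to 0.928.

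*Aqp7*, a glycerol and water channel of the last proximal tubule segment and of fat, had 18.9, 21.8, 22 and 18.8 CPM in the NT kidneys and 18.4, 17.3, 13.7 and 19 CPM in the shFos kidneys. All 4 shFos values were under the NT mean, but replicate 4 lay inside the NT range, and the log2 fold change was -0.25 (SE 0.13, edgeR adjusted p = 0.204), or -0.16 without shFos replicate 3. The 5 adipocyte markers, led by *Cfd*, summed to between 49.7 and 523 CPM in the kidney libraries, and 1 of the 5 was at 0 in NT replicate 4. Their part in the *Aqp7* values was not tested. *Aqp11* had a log2 fold change of 0.12 (SE 0.11, edgeR adjusted p = 0.479) in kidney, from 30.5 to 42.8 CPM over the 8 libraries, which became -0.01 with a correction for GC content (edgeR adjusted p = 0.971; 0.133 to 0.971 over the alternatives). It was 0.06 without shFos replicate 2 and 0.18 without shFos replicate 1. In liver it was 0.18 (SE 0.17, edgeR adjusted p = 0.804), from 13 to 22.7 CPM, and it was 0.36 without NT replicate 2, 0.12 without NT replicate 3 and 0.07 without NT replicate 4. *Aqp8* had 0.193 to 1.65 CPM in the kidney libraries, with a log2 fold change of 0.5 (SE 0.5, edgeR adjusted p = 0.515) that rests on 3 to 23 counts per library. It was 0.18 without NT replicate 4, 0.24 without shFos replicate 3 and 0.82 without NT replicate 3.

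In liver *Aqp8* (ENSMUSG00000030762.11) varied more between libraries than any other channel that was abundant there. It had 133, 178, 115 and 9.95 CPM in NT replicates 1 to 4 and 357, 176, 106 and 323 CPM in shFos replicates 1 to 4. NT replicate 4 had the lowest value of the 8 and shFos replicates 1 and 4 the highest, and the groups overlapped. The log2 fold change was 1.14 (SE 0.72, edgeR adjusted p = 0.752), and without NT replicate 4 it was 0.75 (adjusted p = 0.811; 0.523 to 0.959 over the alternatives). The hepatocyte markers, with 0 of the 5 at 0, summed to 188000, 126000, 119000 and 44100 CPM in the NT livers and to 118000, 111000, 162000 and 124000 CPM in the shFos livers. NT replicate 4 was the lowest for both, but its low sum rests on *Alb*. *Ttr* was also lowest in that library, at 1800 CPM against 4210 to 8630 CPM in the other livers, while *Apoa1* was the highest of the NT livers at 8890 CPM. Without *Alb* the other 4 markers summed to 18500, 17300, 14500 and 16800 CPM in the NT livers and to 20500, 15700, 25000 and 18600 CPM in the shFos livers, where NT replicate 4 was not the lowest. The genes most alike to *Aqp8* over the 8 livers were *Sucnr1*, *Sec14l2*, *Rdx*, *Car5a* and *Tmprss6*, with correlations from 0.994 to 0.988.

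*Aqp9* (ENSMUSG00000032204.13) had 321, 535, 291 and 256 CPM in the NT livers and 252, 247, 253 and 262 CPM in the shFos livers. The shFos livers lay close together, at 254 ± 6.01 CPM (SD, n = 4), all under the NT mean of 351 ± 126 CPM (SD, n = 4), while NT replicate 4 overlapped them. The log2 fold change was -0.47 (SE 0.22, edgeR adjusted p = 0.734), and it was -0.2 without NT replicate 2, the highest library (adjusted p = 0.649; 0.556 to 0.959 over the alternatives). In the GENCODE annotation *Aqp9* overlaps *Gm32511* on the opposite strand, and the counting did not use strand. Whether this changed the *Aqp9* counts was not tested. The 7 pericentral hepatocyte markers, led by *Cyp2e1*, summed to 6760, 6430, 4490 and 3380 CPM in the NT livers and to 4540, 4440, 3620 and 3820 CPM in the shFos livers, with 0 of the 7 at 0. The 6 periportal markers, led by *Pck1*, summed to 2860, 4430, 4250 and 2060 CPM in the NT livers and to 4340, 4580, 6100 and 5450 CPM in the shFos livers, with *Ass1* at 0 in NT replicates 1, 3 and 4 and at no more than 11 counts in any liver. The doubt given for the globin genes holds for *Ass1* too. The part of the pericentral and periportal markers in the *Aqp8* and *Aqp9* values was not tested. The genes most alike to *Aqp9* were *Nrgn*, *Zfp825*, *Tcf7l2*, *Mlkl* and *Klhdc7a* (correlations from 0.942 to 0.934), and to liver *Slc14a1* *Vps39*, *Polr1c*, *Vbp1*, *Tmem185b* and *Arl8a* (0.957 to 0.938).

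**Figure D4:**
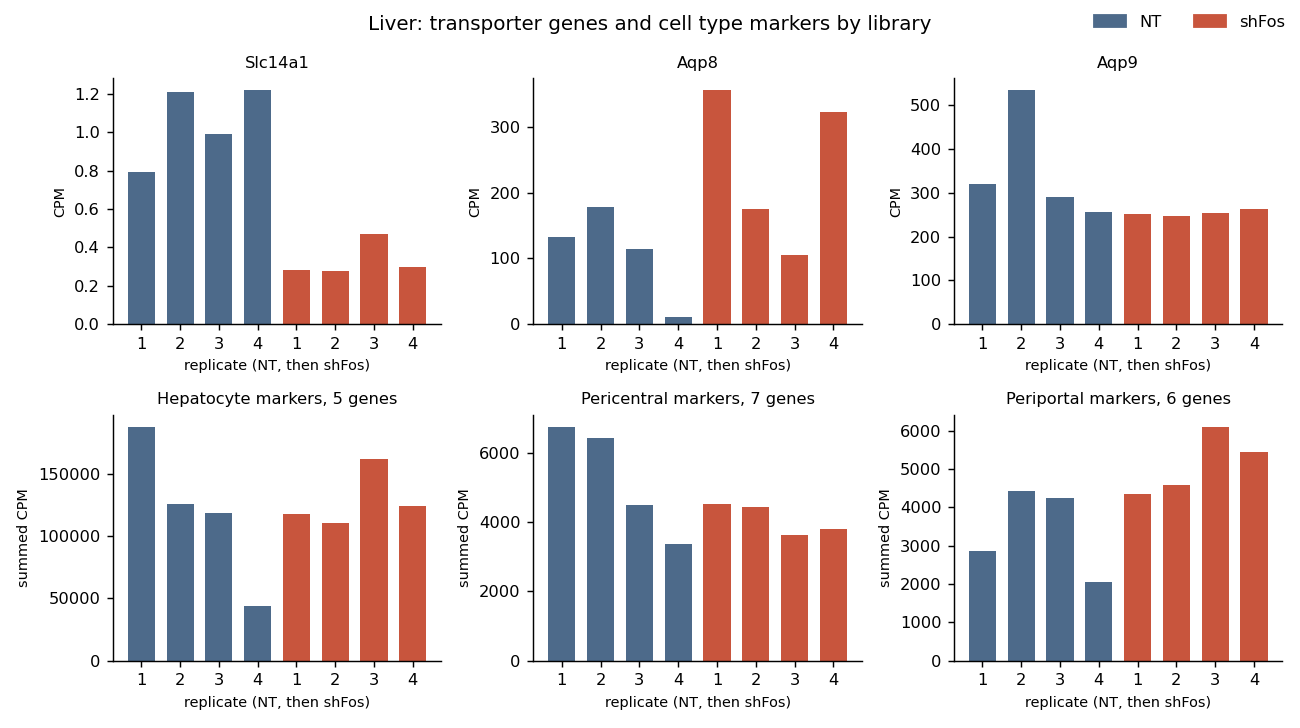
CPM of *Slc14a1*, *Aqp8* and *Aqp9* and summed CPM of hepatocyte, pericentral and periportal markers in each of the 8 liver libraries, NT first and then shFos, with bars from 0. *Slc14a1* is lower in all 4 shFos libraries, and NT replicate 4 is lowest for *Aqp8*, for the pericentral and periportal sums and, through *Alb*, for the hepatocyte sum.

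Whether the treatment difference itself differed between tissues was tested for the 4 genes that passed the filter in both. By edgeR, 0 of the 4 were called, as were 0% of 15421 genes. At an unadjusted p under 0.05 the count was 0 of 4, against 16.1% of genes (7.84% higher and 8.25% lower). DESeq2 called 0 of the 3 that it gave an adjusted p, against 2.93% of 11734 genes (0.886% higher and 2.05% lower). For *Slc14a1* the liver log2 fold change was lower than the kidney one by -1.23 (SE 0.61, edgeR adjusted p = 0.331), with -0.72 without replicate 1 and -1.58 without replicate 3. For *Aqp8* the difference was 0.66 (SE 1.1, edgeR adjusted p = 0.816), with 0.33 without replicate 4 and 0.9 without replicate 2. For *Aqp1* it was 0.09 and for *Aqp11* 0.08, neither larger than its SE of 0.24 and 0.21. The *Aqp11* value turned to -0.07, -0.01 and -0.04 without replicates 1, 3 and 4 and was 0.38 without replicate 2.

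Promoter sequences, from 250 bases before to 50 after the transcript start, were read from a set of RefSeq (GRCm38.p6) entries. That set held 7 of the 10 genes. *Slc14a1*, *Slc14a2* and *Aqp4* were not in it, which does not show that RefSeq lacks them. Since the hairpin targets a subunit of AP-1, the AP-1 letters TGANTCA were searched on both strands, together with the cAMP response element TGACGTCA, for the pathway downstream of vasopressin. The letters TGGAAA of the NFAT core and AGATAA of a GATA site were added after the values were seen. AP-1 letters occur in 7.81% of 32851 promoters, the cAMP response element in 1.79%, TGGAAA in 21.4% and AGATAA in 11.2%. The promoters of *Aqp2* and *Aqp3*, which varied together in kidney, and of the liver channels *Aqp8* and *Aqp9* are shown 5′ to 3′, with matches in capitals.
Aqp2 (chr15:99578806-99579105, + strand): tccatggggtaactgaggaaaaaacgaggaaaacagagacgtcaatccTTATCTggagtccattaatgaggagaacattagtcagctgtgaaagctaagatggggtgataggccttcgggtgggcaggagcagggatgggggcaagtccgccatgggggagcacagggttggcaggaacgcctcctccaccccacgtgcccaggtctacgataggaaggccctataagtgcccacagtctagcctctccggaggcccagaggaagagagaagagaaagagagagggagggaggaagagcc
Aqp3 (chr4:41098134-41098433, - strand): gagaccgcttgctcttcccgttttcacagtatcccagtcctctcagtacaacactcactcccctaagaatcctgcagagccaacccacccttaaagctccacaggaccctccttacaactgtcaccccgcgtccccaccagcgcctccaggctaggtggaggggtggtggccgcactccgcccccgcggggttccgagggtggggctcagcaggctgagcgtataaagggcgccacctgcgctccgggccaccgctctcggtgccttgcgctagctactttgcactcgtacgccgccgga
Aqp8 (chr7:123462044-123462343, + strand): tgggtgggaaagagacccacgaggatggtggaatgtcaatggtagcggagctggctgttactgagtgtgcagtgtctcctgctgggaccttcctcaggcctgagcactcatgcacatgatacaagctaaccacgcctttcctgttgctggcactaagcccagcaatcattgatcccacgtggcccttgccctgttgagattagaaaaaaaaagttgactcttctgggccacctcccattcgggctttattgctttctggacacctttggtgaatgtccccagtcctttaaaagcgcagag
Aqp9 (chr9:71162584-71162883, - strand): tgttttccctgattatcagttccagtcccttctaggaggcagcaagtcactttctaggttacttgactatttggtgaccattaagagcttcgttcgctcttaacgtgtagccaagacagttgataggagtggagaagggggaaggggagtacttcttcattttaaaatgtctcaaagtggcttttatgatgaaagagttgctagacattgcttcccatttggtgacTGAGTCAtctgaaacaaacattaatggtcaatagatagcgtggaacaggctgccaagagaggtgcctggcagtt
Of the 9 entries, 1 of the 2 for *Aqp9* held the AP-1 letters, as TGAGTCA starting 24 bases before the transcript start. None of the 9 held the exact letters TGACGTCA in this window. Inexact forms of the cAMP response element were not searched, so its absence is not shown. *Aqp2* held the GATA letters on the opposite strand, *Aqp7* held the NFAT core and GATA letters in 1 of its 2 entries, and the other *Aqp9* entry held the NFAT core. *Aqp1*, *Aqp3*, *Aqp8* and *Aqp11* held none of the 4 motifs here, and no match overlapped another. A match describes letters and not a bound site.

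Of 4 aquaporin genes outside the 10, *Aqp6*, an anion-conducting channel of intercalated cells, was abundant in kidney, at 134 ± 21.1 CPM in NT and 108 ± 35.8 CPM in shFos (SD, n = 4 for both; log2 fold change -0.32, SE 0.22, edgeR adjusted p = 0.352). It lies beside *Aqp2* and *Aqp5* on chromosome 15 of mm10, where *Aqp2* spans 99579055 to 99584547, *Aqp5* 99590782 to 99594829 and *Aqp6* 99601400 to 99605477. *Aqp5* had 5 to 30 counts and *Mip* 0 to 3 counts per kidney library, and *Aqp12* is listed at 0 in every library, with the same doubt as for the globin genes. In liver *Aqp6* had 0 to 1 counts.

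Genes around the channels were read as lists in both tissues. Of 15 vasopressin receptor, prostaglandin receptor and cyclic AMP genes, all tested in kidney, 11 were higher and 4 lower in shFos, with a median log2 fold change of 0.2, against 0.002 over all genes. By edgeR 0 of the 15 were called, and DESeq2 called 3 higher, against 11.3% of all genes: *Prkar2a* and *Prkar1a*, regulatory subunits of protein kinase A, and *Prkacb*, a catalytic subunit. *Prkar2a* had 50.9 ± 5.4 CPM in NT and 83.1 ± 16 CPM in shFos (SD, n = 4 for both), a log2 fold change of 0.71 (SE 0.15, adjusted p = 0.066 by edgeR and 0.00212 by DESeq2). The vasopressin receptor *Avpr2* had a log2 fold change of -0.16 (SE 0.27, edgeR adjusted p = 0.704). In the same kidneys all 6 proximal tubule markers (median 0.6) and all 5 podocyte markers (median 0.82) were higher. All 7 principal cell markers were lower (median -0.31), and the part of these markers in the list was not tested. In liver 6 of 13 were higher and 7 lower, and *Adcy3* (-0.72), *Prkar2a* (0.18) and *Adcy6* (-0.29) had the smallest p, with 0 called by edgeR and 0 by DESeq2.

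Of 9 transcription factors of the collecting duct, 8 were lower and 1 higher in shFos kidneys, with a median of -0.24. *Emx1* had 59 ± 4.75 CPM in NT and 44 ± 2.59 CPM in shFos (SD, n = 4 for both), a log2 fold change of -0.42 (SE 0.09), with an adjusted p of 0.066 by edgeR and 0.00249 by DESeq2, which called 1 of the 9 lower, against 8.28% of all genes. With all libraries edgeR called 0 of the 9, with 2 lower at an unadjusted p under 0.05, against 14.8% of all genes. Without shFos replicate 1, where edgeR called 27.5% of all genes in either direction, it called 4 of the 9, all lower. In the same setting edgeR called 2 higher and 1 lower of the cyclic AMP list, 2 higher and 1 lower of the *Nfat5* list, 1 higher and 3 lower of the salt transport list, 2 higher of the urea cycle list and 4 higher of the glycerol list. Leaving out any other kidney library gave at most 3 called genes in all. All 7 principal cell markers were lower in the same kidneys, and their part in these values was not tested. *Grhl2* had a log2 fold change of -0.26 (edgeR adjusted p = 0.351). In liver 4 of the 9 were tested, 3 higher and 1 lower, among them *Elf3* (-0.44) and *Gata2* (0.08), with 0 called by either tool. The sign of *Elf3* turned without NT replicate 4 (0.41) and that of *Gata2* without NT replicate 1, NT replicate 2 or shFos replicate 1.

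*Nfat5* is the transcription factor that answers high salt in the medulla, and 9 genes of that response were listed. In kidney 8 were tested, 4 higher and 4 lower, with a median of -0.07, and *Akr1b3* is listed at 0 in every library, with the same doubt as for the globin genes. DESeq2 called 2 higher, against 11.3% of all genes. *Hspa4l*, a heat shock protein, had 23.2 ± 2.75 CPM in NT and 43 ± 1.51 CPM in shFos (SD, n = 4 for both; log2 fold change 0.89, SE 0.1, adjusted p = 0.066 by edgeR and 3.63e-11 by DESeq2). *Sgk1*, a kinase that raises sodium channel activity, had 157 ± 40.4 and 300 ± 82.7 CPM (log2 fold change 0.94, SE 0.23, adjusted p = 0.066 by edgeR and 0.00373 by DESeq2). *Nfat5* itself had a log2 fold change of -0.37 (SE 0.2, edgeR adjusted p = 0.233). The proximal tubule and podocyte markers were higher and the principal cell markers lower in the same kidneys, and their part in this list was not tested. In liver 6 of 8 were higher and 2 lower, with *Slc5a3* (0.61), *Gdpd5* (-0.55) and *Sgk1* (-0.49) at the smallest p and 0 called by either tool.

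Of 14 genes of sodium, potassium and chloride transport, 5 were higher and 9 lower in shFos kidneys, with a median of -0.17. DESeq2 called 1 higher, against 11.3% of all genes, the proximal sodium-proton exchanger *Slc9a3* (0.89, adjusted p = 0.00592). It called 3 lower, against 8.28% of all genes, among them the sodium channel subunits *Scnn1b* (-0.52, adjusted p = 0.00871) and *Scnn1a* (-0.74, adjusted p = 0.0317). By edgeR 0 of the 14 were called. All 7 principal cell markers, of which *Scnn1b* is one, and all 4 distal convoluted tubule markers were lower in the same kidneys. All 6 proximal tubule markers were higher, with a median of 0.6 and 2 called by DESeq2, and the part of these markers in these values was not tested. In liver 4 were tested, 2 in each direction, led by *Scnn1a* (0.49) and *Atp1b1* (0.28), with 0 called by either tool.

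Urea cycle enzymes make the urea that the transporters carry. In liver 7 of the 10 listed genes were tested and all 7 were higher in shFos, with a median of 0.42 against -0.012 over all genes. *Asl* had 412 ± 57.3 CPM in NT and 584 ± 54.2 CPM in shFos (SD, n = 4 for both; log2 fold change 0.5, SE 0.16, edgeR adjusted p = 0.714), and *Cps1*, the entry enzyme, 1940 ± 249 and 2970 ± 813 CPM (0.61, SE 0.23, edgeR adjusted p = 0.714). These 2 did not overlap between groups, with shFos higher, as for 2.79% of genes, and *Slc25a15* (0.42) came next. Neither edgeR nor DESeq2 called any of the 7, and 2 were higher at an unadjusted p under 0.05 by edgeR, against 3.58% of all genes. *Ass1*, another enzyme of the cycle, had 0 to 11 counts per liver library and did not pass the filter, with the same doubt as for the globin genes. Zonation markers were read in the same libraries: all 5 periportal markers tested were higher in shFos (median 0.79, 3 at an unadjusted p under 0.05, against 3.58%) and all 7 pericentral markers lower (median -0.38), with 0 called by edgeR or DESeq2. The urea cycle and periportal lists share 1 gene, *Ass1*, which is not among the genes tested in liver. The part of zonation markers in the urea cycle values was not tested. In kidney 6 were tested, 5 higher and 1 lower, with a median of 0.31, with edgeR calling 0 and DESeq2 calling 2 higher, against 11.3% of all genes, the carriers *Slc25a13* (0.66, adjusted p = 0.00754) and *Slc25a15* (0.62, adjusted p = 0.0233), while *Asl* (0.23) turned to -0.02 without shFos replicate 3.

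Glycerol that enters through *Aqp9*, *Aqp7* or *Aqp3* is phosphorylated by glycerol kinase (*Gk*) and can feed glucose production. Of 12 genes of glycerol release and use, 10 were higher and 2 lower in shFos kidneys, with a median of 0.28. DESeq2 called 4 higher, against 11.3% of all genes, namely *G6pc*, *Fbp1*, *Gpd2* and *Gpd1*, with edgeR log2 fold changes of 1.36, 0.7, 0.78 and 0.73, while edgeR called 0 of the 12. *G6pc*, which releases free glucose, had 339 ± 160 CPM in NT and 870 ± 220 CPM in shFos (SD, n = 4 for both; SE 0.35, adjusted p = 0.066 by edgeR and 0.002 by DESeq2). The proximal tubule markers were also higher in shFos kidneys, 6 of 6 with a median of 0.6 and 2 called by DESeq2, and NT replicate 4 had the lowest sum of both lists (3140 CPM for the glycerol list). Their part in the glycerol list was not tested. In liver 7 were higher and 5 lower with a median of 0.03, led by *Pnpla2* (-0.46), *Gk* (0.33) and *Pygl* (0.36), with 0 called by either tool.

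**Figure D5:**
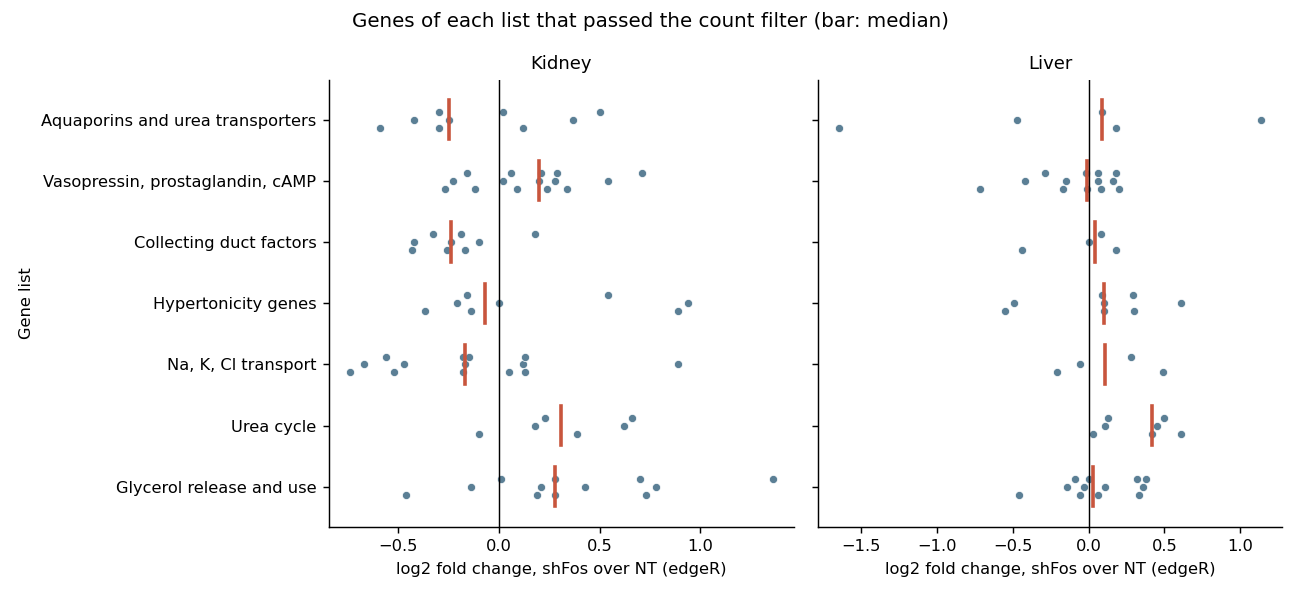
Log2 fold change of shFos over NT by edgeR for every gene of 7 lists that passed the filter on low counts, in kidney (left) and liver (right), with 1 point per gene and a bar at the list's median. The medians in kidney are -0.25 for the aquaporins and urea transporters, -0.24 for the collecting duct factors and 0.28 for glycerol release and use, and in liver 0.42 for the urea cycle.

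Markers of other cells that such tissues can hold were summed as well. In kidney the 4 immune cell markers summed to 17.1 CPM in NT replicate 4 and to between 50.4 and 116 CPM in the other 7 libraries. The 6 intercalated cell markers summed to between 291 and 470 CPM, the 5 thick ascending limb markers, led by *Umod*, to between 6980 and 9800 CPM, and the 4 distal convoluted tubule markers, led by *Slc12a3*, to between 1540 and 2910 CPM. All 4 distal markers were lower in shFos kidneys, at a median of -0.42 on the log2 scale, and 1 of them was called by DESeq2, against 8.28% of all genes. DESeq2 also called 1 of the 6 intercalated cell markers lower, against the same 8.28%, and 1 of the 5 thick limb markers higher, against 11.3%. Stellate cell and fibroblast markers summed to between 209 and 308 CPM in kidney and between 205 and 380 CPM in liver, where all 5 were higher in shFos (median 0.53, with 0 called by edgeR or DESeq2). Bile duct markers, led by *Spp1*, summed to between 49.5 and 114 CPM in liver. Skeletal muscle markers reached at most 4.25 CPM in kidney and 6.51 CPM in liver. Of the 5 exocrine pancreas markers, *Cela1* alone had counts, with at most 117 CPM in kidney, and the other 4 are listed at 0 in every library, with the same doubt as for the globin genes.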

How the data were processed

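RNA-seq of kidney and liver was analysed in 16 libraries. Per the submitters' processing notes and the study's methods, the authors trimmed reads with Trimmomatic 0.39, aligned them to mm10 with HISAT2 2.2.1 and counted them per gene with HTSeq 0.12.4 without strand. The deposited files hold raw counts. Reads on no gene made up 13.4% to 26.7% and ambiguous reads 1.84% to 2.64%; these summary lines were not used as genes. Counting without strand makes values of overlapping genes uncertain. GENCODE M21 matched 98.2% of the symbols and gave identifiers, positions, GC content and lengths.

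Kidney and liver were modelled separately with edgeR 4.0.16 under R 4.3.3 (filterByExpr, TMM, robust estimateDisp, glmQLFit, glmQLFTest, Benjamini-Hochberg over all genes tested, threshold 0.05), and the interaction in a fit of all 16 libraries. The legacy glmQLFit was run with robust shrinkage, which was settled after the files were seen; without it edgeR called 0 genes in either tissue as well (4762 in kidney and 897 in liver at an unadjusted p under 0.05), while DESeq2 called 2697 and 37 at an adjusted p under 0.05. Alternatives were DESeq2 1.42.0, other scalings and filters, a fit of all 16 libraries, the newer quasi-likelihood method, a GC content offset (lowess span 0.3), a block for replicate number, and leaving out single libraries. The functions were tested on simulated data with known fold changes, at the same threshold of 0.05. There edgeR made 4 false calls among 153 in simulated kidney and 6 among 136 in simulated liver. DESeq2 made 29 among 196 and 40 among 194, so its calls are less certain. Of the genes given a fold change of 2, edgeR called 64.9% in kidney and 45.5% in liver, and DESeq2 77% and 66%.

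The members and lists were chosen with earlier results of these data known. Named are the 10 members and *Fos*, the 3 genes of smallest p per pathway list and tissue with any that DESeq2 called, and the 5 genes of highest Pearson correlation of log2 CPM (prior count 2) with each of 9 member patterns. Some genes that this rule includes are not reported here. *Avpr2* and *Ass1* are named outside it, after their values were seen. Promoters came from RefSeq. Figures were drawn with matplotlib 3.10.9.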

Additional observations from a re-analysis of the deposited data

Results flagged for a closer look

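Of 32 groups of 4 libraries examined for *Fos* and the genes that passed the filter, 2 had a library far from the other 3, and chance gives about 1 in 20. *Slc14a1* in liver shFos replicate 3 had 0.47 CPM, from 8 counts, against 0.278 to 0.299 CPM in the other shFos livers, from 5 counts each, a gap that counting error alone can give. The liver log2 fold change without that library was -1.87 (edgeR adjusted p = 0.893; 0.302 to 0.959 over the alternatives). *Aqp4* in kidney NT replicate 4 had 103 CPM against 60.9 to 66.9 CPM in the other NT kidneys. The kidney log2 fold change of *Aqp4* without it was 0.58 (edgeR adjusted p = 0.299; 0.274 to 0.909 over the alternatives). That library also had the highest *Aqp1* (1200 CPM) and *Aqp2* (443 CPM) of the NT kidneys.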

How the results depend on the processing

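For *Fos*, the 10 genes and the list genes chosen by rule, 58 log2 fold changes were recomputed in 1047 comparisons with an alternative: 990 kept their sign and side of the threshold, 39 passed it and 18 changed sign. With edgeR, 0 genes were called in either tissue (4747 in kidney and 886 in liver at an unadjusted p under 0.05). DESeq2 called 2697 genes in kidney, 37 in liver and 344 for the interaction. In kidney, no filter on low counts gave 3 and a fit of all 16 libraries 994. Leaving out 1 kidney library gave 0 to 4126 genes, with 4126 without shFos replicate 1 and 3 without NT replicate 4, and 0 to 2 of the 10 genes. Leaving out a replicate number gave 0 to 448 genes for the interaction, the 448 without replicate 1. *Fos* in kidney passed the threshold with DESeq2 (-0.73, adjusted p = 0.0427; 0.0427 to 0.227 over the alternatives). The cause was not tested.

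Some log2 fold changes changed sign. In kidney *Aqp1* (0.02) was -0.04 with upper quartile scaling and -0.07 to 0.2 over the libraries left out, *Aqp4* -0.07 to 0.59 (-0.07 without shFos replicate 1), *Aqp11* -0.01 with the GC content correction with or without the replicate block, and *Asl* -0.02 to 0.34 (-0.02 without shFos replicate 3). In liver *Gata2* was -0.09 without NT replicate 1, -0.11 without NT replicate 2 and -0.06 without shFos replicate 1 (up to 0.46), and *Elf3* -0.74 to 0.41 (0.41 without NT replicate 4). For the interaction, *Fos* was -0.18 to 0.49 (-0.18 without replicate 1), and *Aqp11* -0.07 to 0.38 (-0.07, -0.01 and -0.04 without replicates 1, 3 and 4). With TMM over all 16 libraries, added after the data were seen, the tissue ratio was 8.81 for *Aqp1*, 376 for *Aqp8*, 1150 for *Aqp9* and 1.03 for *Aqp11*.

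Replicate numbers did not pair the libraries: same-numbered NT and shFos libraries had correlations of deviations from -0.17 to 0.12 in kidney and -0.26 to 0.04 in liver, and no NT library was most like its own number. Kidney and liver of 1 number correlated from 0.12 to 0.33 in NT and from 0.04 to 0.15 in shFos, and the labels do not say whether they share a mouse, while the fits of all 16 libraries took them as independent. With the replicate block 0 genes were called in either tissue and for the interaction. Depth limits *Slc14a1* in liver and *Aqp8* and *Aqp9* in kidney.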
